A study of Arabidopsis thaliana with 14 samples.

Results

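Glutathione transferases (GSTs) join the tripeptide glutathione to reactive compounds, and the phi class is one of the large plant-specific groups of these enzymes. The 7 phi-class genes described here are GSTF2 (AT4G02520), GSTF3 (AT2G02930), GSTF6 (AT1G02930), GSTF7 (AT1G02920), GSTF8 (AT2G47730), GSTF9 (AT2G30860) and GSTF10 (AT2G30870). They were taken by locus from the mRNA-seq counts of Arabidopsis thaliana, and all 7 were among the 21912 genes listed for plants grown in soil and the 33602 genes listed for plants grown in sterile medium. The mutant ibm1-1 carries a point mutation in IBM1, which encodes a histone H3K9 demethylase that keeps gene bodies free of non-CG DNA methylation, and it was compared with its wild type Col-0. Soil-grown plants of ibm1-1 (n = 3) and Col-0 (n = 3) spent 5 days on Murashige and Skoog plates and 10 more days in soil before whole seedlings were collected, while the medium-grown ibm1-1 (n = 2) and Col-0 (n = 2) seedlings were collected after 7 days on sterile Murashige and Skoog medium. All groups share the Col-0 background and a treatment labelled as regular, and 1 mutant allele was sequenced. The libraries come from whole plants, so that a change in the cells that carry a transcript and a change in transcript per cell cannot be told apart.

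Plants raise part of the phi class within hours of pathogen attack or of treatment with salicylic acid, the hormone of resistance against biotrophic pathogens, and leave another part almost steady. GSTF2, GSTF3, GSTF6 and GSTF7 were grouped as defence-induced members. GSTF2 binds small ligands that include the phytoalexin camalexin, and GSTF6 has been placed in the glutathione step of camalexin synthesis. GSTF8 is a stress-inducible gene with a high basal level, long used as a marker of early stress responses, and GSTF9 and GSTF10 were grouped as housekeeping members with a high basal level in most organs.

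The members sit on chromosomes 1, 2 and 4 of the TAIR10.1 assembly, and all are protein-coding genes. GSTF7 (chromosome 1 from 658578 to 659980) and GSTF6 (chromosome 1 from 661088 to 662475) are neighbours on the minus strand with a gap of 1107 bp. The same strand holds GSTF5 at 487 bp from GSTF6 and GSTF4 at 828 bp from GSTF5. GSTF9 (chromosome 2 from 13138882 to 13140392) and GSTF10 (chromosome 2 from 13141290 to 13142676) follow each other on the plus strand, 897 bp apart. GSTF3 (chromosome 2 from 851156 to 852321, minus strand), GSTF8 (chromosome 2 from 19556326 to 19559485, plus strand) and GSTF2 (chromosome 4 from 1110343 to 1112033, minus strand) stand apart from the other members. GSTF8 shares 516 bp of its 3160 bp with AT2G47720 on the same strand, and how reads in the overlap were assigned was not tested. GSTF2 shares 1442 bp of its 1691 bp with TOC159 (AT4G02510) on the opposite strand. The library kit was directional, but the strand setting of the counting is not given in the sources used here, so the values of GSTF2 are uncertain to that extent. TOC159 itself differed little between the genotypes, with a log2 fold change of 0.09 in soil (adjusted p = 0.134) and 0.04 in medium (adjusted p = 0.84) by edgeR's quasi-likelihood test.

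The members include near-identical pairs. The coding sequences of GSTF2 and GSTF3 are identical at 604 of 639 aligned positions (94.52%) with a longest identical run of 74 bp, and those of GSTF6 and GSTF7 at 594 of 630 (94.29%) with a run of 116 bp. GSTF9 and GSTF10 share 77.62% of aligned positions, and no other pair shares more than 77.31%. The first 90 coding bases of both close pairs show how few positions separate them, and they are given 5′ to 3′ from RefSeq TAIR10.1 in lower case with capitals where the members of a pair differ. Reads that lie within a shared run cannot be told apart between partners, so each partner's count is uncertain, and the summed counts of a pair are given beside the single ones.
GSTF2, chr4:1111442-1111531 (minus strand): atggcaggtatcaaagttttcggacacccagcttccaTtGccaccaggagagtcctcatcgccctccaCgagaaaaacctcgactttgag
GSTF3, chr2:852017-852106 (minus strand): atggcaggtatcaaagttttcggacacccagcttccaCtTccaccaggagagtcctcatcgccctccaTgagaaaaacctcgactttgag
GSTF6, chr1:662102-662191 (minus strand): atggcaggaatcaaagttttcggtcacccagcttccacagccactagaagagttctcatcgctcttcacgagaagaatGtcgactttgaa
GSTF7, chr1:659616-659705 (minus strand): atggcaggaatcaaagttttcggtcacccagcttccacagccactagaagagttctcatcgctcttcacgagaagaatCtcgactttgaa

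In soil, GSTF2, GSTF3, GSTF6 and GSTF7 were 2.44-fold to 4.60-fold higher in ibm1-1 than in Col-0, whereas GSTF8, GSTF9 and GSTF10 stayed within a fold of 0.952 to 1.23. The 4.60-fold value was that of GSTF3, and without it the range ended at 3.55-fold. A gene was called a differentially expressed gene (DEG) where its level differed more than 2-fold and its p, adjusted over all genes tested, was below 0.05. By this rule 4 of the 7 members were higher and 0 lower in ibm1-1, against a background of 5.87% higher and 2.39% lower DEGs among the 20082 genes tested. All 7 members passed the filter on low counts, but GSTF3 reached its minimum in 3 of 3 ibm1-1 libraries and in 1 of 3 Col-0 libraries and so passed through ibm1-1. Without GSTF3, 3 of 6 members were higher DEGs. The count of 0 lower members was the same at an unadjusted p below 0.05 in edgeR and with DESeq2 and limma-trend, in soil and in medium. At an adjusted p below 0.05 alone 5 members were higher and 0 lower, and this looser rule called 25.4% of all genes higher and 25.9% lower. The libraries of the genotypes did not overlap for 6 members, and this was also so for 57.1% of all genes tested.

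Values are CPM, the counts scaled to library size with the TMM factors of edgeR. GSTF6 had 141, 135 and 139 CPM in ibm1-1 and 38.7, 39.8 and 38.3 CPM in Col-0. Every ibm1-1 library was thus more than 3-fold above every Col-0 library. The log2 fold change was 1.83 (SE 0.0452, adjusted p = 3.73e-24 by edgeR's quasi-likelihood test). Its neighbour and close paralog GSTF7 had 96.5, 95.5 and 100.2 CPM in ibm1-1 and 39.8, 38.1 and 41.6 CPM in Col-0. The groups were again far apart. For GSTF7 the log2 fold change was 1.29 (SE 0.0475, adjusted p = 5.59e-20, edgeR). When the counts of GSTF6 and GSTF7 were summed, the pair had a log2 fold change of 1.58 (SE 0.0415, adjusted p = 1.46e-23, edgeR).

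GSTF2, the ligand-binding member, was the most abundant of the defence-induced genes. It had 413, 412 and 405 CPM in ibm1-1 and 140.3, 133 and 134 CPM in Col-0. The groups were far apart, and the libraries of each genotype lay close together. Its log2 fold change was 1.59 (SE 0.041, adjusted p = 9.22e-24, edgeR). The other partner of the pair, GSTF3, was nearly silent. It had 1.84, 2.10 and 1.95 CPM in ibm1-1, from 45, 53 and 49 counts, and 0.310, 0.367 and 0.593 CPM in Col-0, from 8, 7 and 14 counts. The log2 fold change of 2.20 (SE 0.282, adjusted p = 1.09e-07, edgeR) rests on these few counts, and the ratio of the summed counts was 4.64 with a 95% interval of 3.10 to 7.17 (Clopper-Pearson, counting error only). With GSTF2 and GSTF3 summed, the log2 fold change was 1.60 (SE 0.0409, adjusted p = 8.95e-24, edgeR).

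The housekeeping members and GSTF8 differed far less in soil. GSTF9, the most abundant member, had 1254, 1261 and 1273 CPM in ibm1-1 and 1032, 1019 and 1021 CPM in Col-0. The groups did not overlap, and the log2 fold change of 0.30 (SE 0.0407, adjusted p = 2.68e-07, edgeR) was past the p threshold but far below the fold-change threshold. GSTF10 had 302, 303 and 302 CPM in ibm1-1 and 285, 292 and 296 CPM in Col-0. Its ibm1-1 libraries were all slightly above the Col-0 libraries, yet the log2 fold change of 0.05 (SE 0.0391) did not pass the test (adjusted p = 0.257, edgeR). GSTF8 had 169, 197 and 174 CPM in ibm1-1 and 190.5, 197 and 180.4 CPM in Col-0, with overlapping groups and a log2 fold change of -0.07 (SE 0.0486, adjusted p = 0.232, edgeR).

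**Figure D1:**
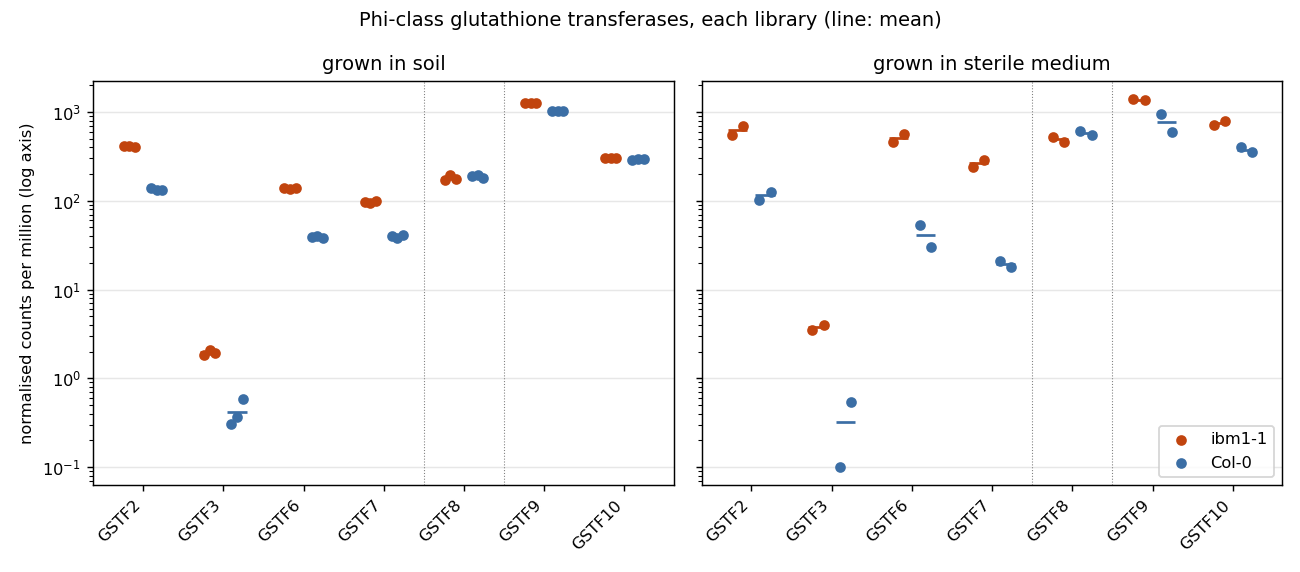
Normalised counts (CPM, log axis) of the 7 phi-class members in each library, in soil (left panel, n = 3 per genotype) and in sterile medium (right panel, n = 2 per genotype). Points are libraries, short lines are means, and dotted lines part the defence-induced members, GSTF8 and the housekeeping members. GSTF6 reached 461 and 569 CPM in medium-grown ibm1-1, above 53.1 and 30.1 CPM in Col-0, whereas the genotypes overlap for GSTF8 in soil.

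In sterile medium the same 4 genes were 5.43-fold to 13.8-fold higher in ibm1-1, and GSTF9 and GSTF10 were higher by 1.78-fold and 1.99-fold. Again 4 of the 7 members were higher DEGs and 0 were lower, against 5.53% higher and 1.53% lower DEGs among the 20871 genes tested. GSTF3 reached the count minimum in 2 of 2 ibm1-1 libraries and in 1 of 2 Col-0 libraries, and without it 3 of 6 members were higher DEGs. At an adjusted p below 0.05 alone, 6 members were higher and 0 lower, with 11.5% of all genes higher and 7.77% lower. No member had overlapping groups, but with 2 libraries per genotype this held for 61.8% of all genes tested.

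GSTF7 had 242 and 291 CPM in ibm1-1 and 20.9 and 17.8 CPM in Col-0. This was the largest fold change of the 7 members in medium, and the log2 fold change of 3.79 (SE 0.15, adjusted p = 1.72e-06, edgeR) ranked 161 from the highest among the 20871 genes tested. GSTF6 had 461 and 569 CPM in ibm1-1 and 53.1 and 30.1 CPM in Col-0, a log2 fold change of 3.63 (SE 0.247, adjusted p = 1.88e-05, edgeR). As a ratio the Col-0 libraries were further apart than the ibm1-1 libraries, but both lay far below them. Summed, the pair had a log2 fold change of 3.68 (SE 0.213, adjusted p = 8.34e-06, edgeR).

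GSTF2 had 553 and 695 CPM in ibm1-1 and 103 and 127 CPM in Col-0, with a log2 fold change of 2.44 (SE 0.159, adjusted p = 1.52e-05, edgeR). GSTF3 again had few counts, 67 and 73 in ibm1-1 and 2 and 12 in Col-0. These correspond to 3.53 and 4.04 CPM in ibm1-1 and 0.101 and 0.547 CPM in Col-0. The log2 fold change of GSTF3 was 3.48 (SE 0.469, adjusted p = 0.00094, edgeR), with a count ratio of 11.3 (95% interval 6.49 to 21.1, Clopper-Pearson). Without Col-0 replicate 1 this log2 fold change was 2.77, and without Col-0 replicate 2 it was 5.14. The sum of GSTF2 and GSTF3 had the same log2 fold change as GSTF2 alone, 2.44.

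The housekeeping members were higher in medium as well. GSTF10 had 709 and 790.0 CPM in ibm1-1 and 402 and 353 CPM in Col-0, with well separated groups. Its log2 fold change of 0.99 (SE 0.128, adjusted p = 0.000733, edgeR) lay just under the fold-change threshold. GSTF9 had 1385 and 1377 CPM in ibm1-1 and 953 and 595 CPM in Col-0. As a ratio the Col-0 libraries differed from each other more than the nearer of them differed from ibm1-1. The log2 fold change of GSTF9 was 0.84 (SE 0.197, adjusted p = 0.0164, edgeR). Both calls turned on single libraries. Without Col-0 replicate 1, GSTF9 (1.21) and GSTF10 (1.08) both became DEGs and 6 members were called, and without ibm1-1 replicate 1, GSTF10 (1.07) became a DEG and 5 were called. GSTF8, the early stress marker, had 529 and 460 CPM in ibm1-1 and 612 and 551 CPM in Col-0, and its log2 fold change of -0.23 (SE 0.128) did not pass the test (adjusted p = 0.232, edgeR).

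**Figure D2:**
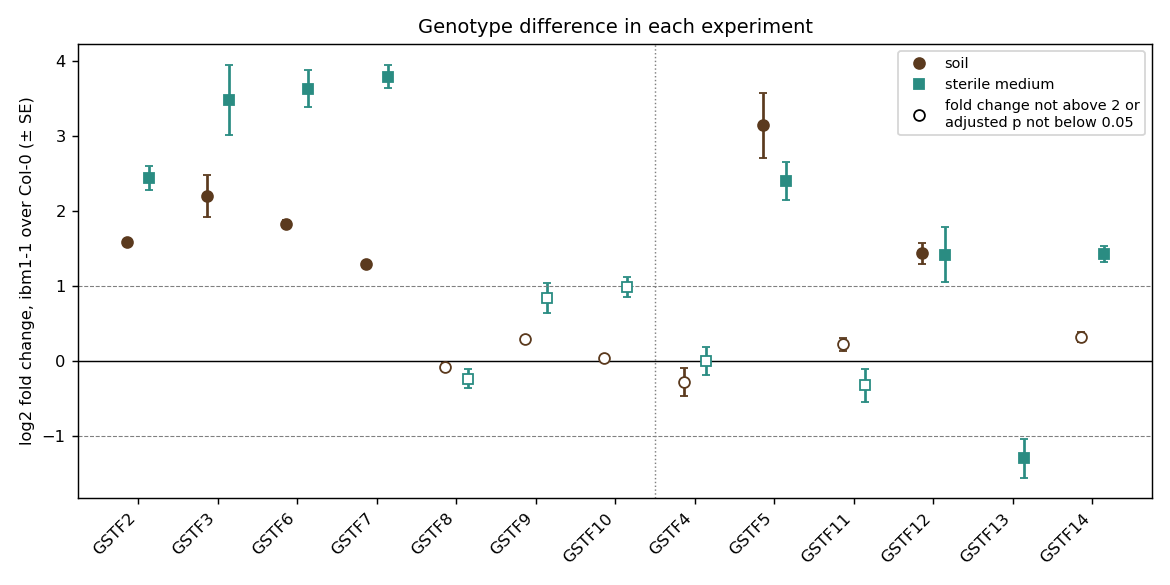
Log2 fold change of ibm1-1 over Col-0 (± SE) for the 7 members (left of the dotted line) and the 6 other phi-class genes (right), in soil (circles) and in sterile medium (squares). Filled symbols passed both thresholds, and dashed lines mark a fold change of 2. GSTF6 lies at 1.83 in soil and 3.63 in medium, GSTF8 at -0.07 and -0.23.

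The genotype effect was then compared between the experiments by the difference of log2 fold changes, soil minus medium, with limma's voom on all 10 libraries. Among the 20192 genes tested this difference passed an adjusted p below 0.05 for 17.8%, and it did so for 5 of the 7 members, all with the larger effect in medium. GSTF7 had the largest difference, -2.49 (SE 0.142, adjusted p = 1.36e-10, limma). The difference was -1.84 for GSTF6 (adjusted p = 1.5e-07), -0.93 for GSTF10 (adjusted p = 5.43e-07), -0.84 for GSTF2 (adjusted p = 5.1e-05) and -0.56 for GSTF9 (adjusted p = 0.00624, all limma). GSTF3 (-1.63, adjusted p = 0.139) and GSTF8 (0.15, adjusted p = 0.445) did not pass the test. The voom model fits weighted log values, so its differences need not equal those of the edgeR fold changes, and for GSTF3 edgeR on all 10 libraries gave -1.27 (adjusted p = 0.134). The experiments also differ in plant age, growth conditions and read processing, and these cannot be told apart from soil against medium.

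Levels of different genes were compared per length, as CPM per kilobase of coding sequence. This length leaves out the untranslated parts of a transcript, and their part in the orders and shares below was not tested. For each gene the longest annotated coding sequence was used, 792 bp for GSTF8 and 627 bp for GSTF6. The effect of this choice was not tested either. In ibm1-1 from soil the order was GSTF9 (1948 ± 14.3, SD, n = 3), GSTF2 (641 ± 6.68), GSTF10 (467 ± 1.47), GSTF8 (228 ± 19.1), GSTF6 (220.3 ± 5.10), GSTF7 (154.6 ± 3.99) and GSTF3 (3.07 ± 0.198), and of neighbours in this order only GSTF8 and GSTF6 overlapped. In Col-0 from soil it was GSTF9 (1580.3 ± 10.4, SD, n = 3), GSTF10 (449.5 ± 8.39), GSTF8 (239 ± 10.7), GSTF2 (212 ± 6.16), GSTF7 (63.2 ± 2.81), GSTF6 (62.1 ± 1.26) and GSTF3 (0.662 ± 0.234), and only GSTF7 and GSTF6 overlapped. GSTF2 thus stood above GSTF10 and GSTF8 in ibm1-1 and below both in Col-0.

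In medium, ibm1-1 had the order GSTF9 (2131 ± 8.14 CPM per kilobase, SD, n = 2), GSTF10 (1156 ± 88.9), GSTF2 (976 ± 157), GSTF6 (822 ± 122), GSTF8 (624 ± 61.8), GSTF7 (423 ± 54.6) and GSTF3 (5.92 ± 0.569), with overlap of GSTF2 and GSTF6 only. Col-0 had the order GSTF9 (1194 ± 391 CPM per kilobase, SD, n = 2), GSTF8 (734 ± 54.4), GSTF10 (583 ± 52.4), GSTF2 (179.8 ± 26.4), GSTF6 (66.4 ± 26.0), GSTF7 (30.7 ± 3.50) and GSTF3 (0.507 ± 0.494), with no overlap between neighbours. Per kilobase, the defence-induced GSTF2 and GSTF6 thus ranked above GSTF8 in ibm1-1 and below it in Col-0. In CPM not divided by length, GSTF6 (461 and 569) and GSTF8 (529 and 460) overlapped in medium-grown ibm1-1.

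The make-up of the family shifted with genotype. In soil, GSTF2, GSTF3, GSTF6 and GSTF7 together made up 28.2%, 27.6% and 27.7% of the 7 members' CPM per kilobase in ibm1-1 and 13.2%, 12.8% and 13.0% in Col-0. In medium their share was 33.8% and 38.6% in ibm1-1 and 8.89% and 11.3% in Col-0. The genotypes did not overlap in either experiment. GSTF9 and GSTF10 together were still the larger part everywhere, with 65.6% to 66.3% in soil-grown ibm1-1, 77.6% to 78.2% in soil-grown Col-0, 52.4% to 54.9% in medium-grown ibm1-1 and 60.1% to 66.5% in medium-grown Col-0. The summed level of the 7 members was 3662 ± 17.1 CPM per kilobase in ibm1-1 and 2607 ± 10.3 in Col-0 in soil (SD, n = 3 each). In medium it was 6139 ± 354 in ibm1-1 and 2788 ± 500 in Col-0 (SD, n = 2 each).

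**Figure D3:**
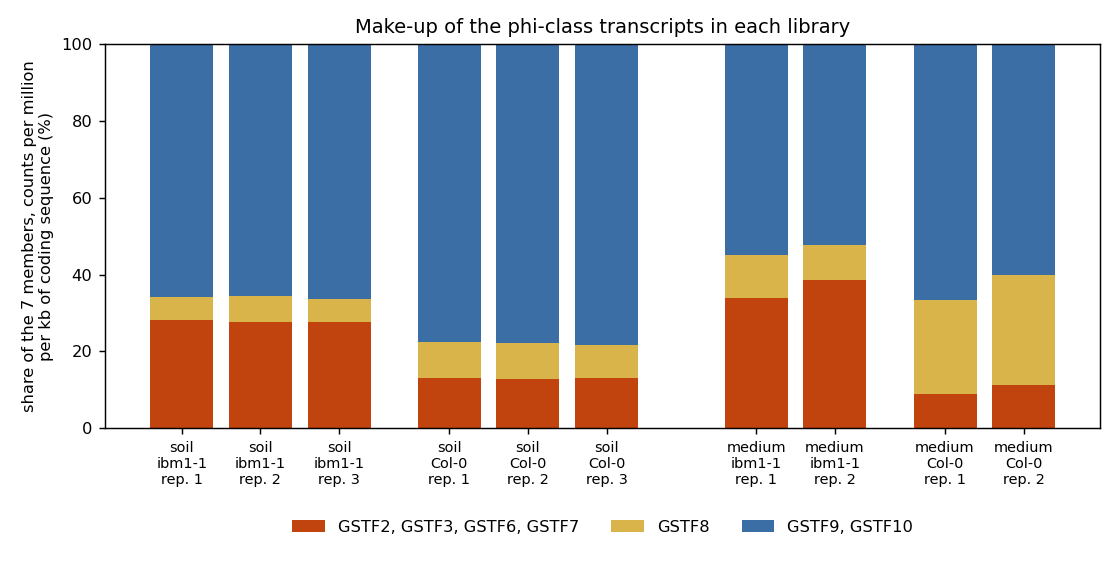
Share (%) of the 7 members' summed CPM per kilobase of coding sequence in each library, split into the defence-induced members GSTF2, GSTF3, GSTF6 and GSTF7, GSTF8, and the housekeeping members GSTF9 and GSTF10. The defence-induced share is 27.6% to 28.2% in soil-grown ibm1-1 and 12.8% to 13.2% in soil-grown Col-0.

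Within the close pair on chromosome 1, the ratio of GSTF6 to GSTF7 per kilobase was 1.47, 1.42 and 1.39 in soil-grown ibm1-1 and 0.977, 1.05 and 0.924 in soil-grown Col-0, with no overlap. In medium it was 1.91 and 1.97 in ibm1-1 and 2.55 and 1.70 in Col-0, where the groups overlapped. Other near-identical copies had very different values in the 2 experiments. LHCB1_1, 1 of several near-identical genes of the light-harvesting complex, averaged 5021 CPM in ibm1-1 and 5783 CPM in Col-0 in soil but 140.5 CPM in ibm1-1 and 32.0 CPM in Col-0 in medium. The part of read processing in the pairwise ratios was not tested.

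The promoters of GSTF2, GSTF3, GSTF7, GSTF8, GSTF9 and GSTF10 were searched for the letters TGACG, the core bound by TGA factors that act with salicylic acid, and TTGAC, the core of the W-box bound by WRKY factors, on both strands of the 250 bases before the annotated gene start. TGACG occurs in 18.6% and TTGAC in 44.9% of 27443 promoters of this length, and the overlapping form TTGACG in 7.19%. The windows of GSTF2, GSTF3 and GSTF7 and of GSTF10, the housekeeping member with both motifs, are given 5′ to 3′ on the gene's strand from RefSeq TAIR10.1, with the motif letters in capitals, where CGTCA and GTCAA are the same motifs on the other strand.
GSTF2, chr4:1112034-1112283 (minus strand): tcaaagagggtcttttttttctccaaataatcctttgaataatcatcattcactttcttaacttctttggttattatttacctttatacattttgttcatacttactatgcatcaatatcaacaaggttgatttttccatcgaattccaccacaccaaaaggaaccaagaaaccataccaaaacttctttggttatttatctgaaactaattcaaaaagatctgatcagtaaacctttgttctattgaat
GSTF3, chr2:852322-852571 (minus strand): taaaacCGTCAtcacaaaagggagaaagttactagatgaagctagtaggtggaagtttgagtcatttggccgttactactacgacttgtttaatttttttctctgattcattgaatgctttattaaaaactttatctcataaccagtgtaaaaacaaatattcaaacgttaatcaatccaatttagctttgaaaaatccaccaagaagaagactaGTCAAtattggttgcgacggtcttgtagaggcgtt
GSTF7, chr1:659981-660230 (minus strand): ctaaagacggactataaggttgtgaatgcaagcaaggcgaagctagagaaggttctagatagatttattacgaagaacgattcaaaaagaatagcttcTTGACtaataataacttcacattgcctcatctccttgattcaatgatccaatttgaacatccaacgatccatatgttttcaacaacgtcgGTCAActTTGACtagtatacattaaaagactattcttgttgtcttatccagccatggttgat
GSTF10, chr2:13141040-13141289 (plus strand): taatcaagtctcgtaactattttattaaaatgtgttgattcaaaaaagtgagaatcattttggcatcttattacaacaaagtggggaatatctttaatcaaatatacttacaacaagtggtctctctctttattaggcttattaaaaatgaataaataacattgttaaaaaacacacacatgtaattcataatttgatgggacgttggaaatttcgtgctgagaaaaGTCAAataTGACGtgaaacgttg

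Among these windows TTGAC occurs 3 times in GSTF7, with first bases 152, 62 and 55 bases before the gene start. GSTF3 holds TTGAC at 35 bases and TGACG at 244 bases, and GSTF10 holds TTGAC at 23 bases and TGACG at 15 bases before the start. Neither motif is in the windows of GSTF2 and GSTF9, and GSTF8 holds TGACG at 193 bases. Such a match, or its absence, is a description of letters in these windows only. Bases between the annotated gene start and the first coding base were not searched. In GSTF2 these lie at 1112033 and 1111531 on chromosome 4. GSTF8 spans 3160 bp with 2 annotated transcripts, and only the outermost start was used.

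The 6 other phi-class genes, GSTF4 (AT1G02950), GSTF5 (AT1G02940), GSTF11 (AT3G03190), GSTF12 (AT5G17220), GSTF13 (AT3G62760) and GSTF14 (AT1G49860), were read out the same way. In soil 5 were tested, 2 were higher and 0 lower DEGs, with a median log2 fold change of 0.32. In medium 6 were tested, 3 were higher and 1 was lower, with a median of 0.71. Without GSTF5, whose Col-0 counts were below the minimum in soil, 1 of 4 was higher there. Among all genes tested, 5.87% were higher and 2.39% lower DEGs in soil, and 5.53% and 1.53% in medium. In soil 0 of the 5 tested were lower at an unadjusted p below 0.05 in edgeR and as DEGs of DESeq2 or limma-trend. GSTF5, the next gene to GSTF6, had 1.39, 0.909 and 1.67 CPM in soil-grown ibm1-1 and 0.232, 0.157 and 0.0424 CPM in Col-0. It passed the soil filter through ibm1-1 only, with 0 of 3 Col-0 libraries at the minimum, and had a log2 fold change of 3.14 (SE 0.427, adjusted p = 3.13e-07, edgeR). In medium GSTF5 had 5.58 and 6.87 CPM in ibm1-1 and 1.16 and 1.19 CPM in Col-0, a log2 fold change of 2.40 (SE 0.247, adjusted p = 0.000216, edgeR). The gene after it, GSTF4, did not pass the test in soil (log2 fold change -0.27, adjusted p = 0.23) or in medium (0.00, adjusted p = 0.993, edgeR).

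GSTF12, known as TRANSPARENT TESTA 19 and needed for the transport of anthocyanins and proanthocyanidins into the vacuole, was higher in both experiments. It had 6.39, 7.08 and 7.97 CPM in soil-grown ibm1-1 and 2.28, 2.99 and 2.71 CPM in Col-0, a log2 fold change of 1.44 (SE 0.14, adjusted p = 5.2e-10, edgeR). In medium GSTF12 had 51.8 and 44.8 CPM in ibm1-1 and 27.4 and 8.90 CPM in Col-0. The log2 fold change of 1.42 (SE 0.369, adjusted p = 0.0252, edgeR) was 0.81 without Col-0 replicate 2 and 2.44 without Col-0 replicate 1, and DESeq2 gave an adjusted p of 0.214, the highest of a range that began at 3.58e-15 over the alternatives.

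GSTF14 was a higher DEG in medium, with 72.0 and 77.5 CPM in ibm1-1 and 27.8 CPM in both Col-0 libraries (log2 fold change 1.43, SE 0.108, adjusted p = 3.33e-05, edgeR). In soil its log2 fold change was 0.32 (SE 0.0645, adjusted p = 0.000123, edgeR). GSTF13 was a lower DEG in medium, with 1.47 and 1.72 CPM in ibm1-1 and 3.74 and 4.06 CPM in Col-0 (log2 fold change -1.29, SE 0.256, adjusted p = 0.00746, edgeR), and its counts were below the filter in soil. GSTF11 had log2 fold changes of 0.23 in soil (adjusted p = 0.0263) and -0.32 in medium (adjusted p = 0.347, edgeR), and neither reached the fold-change threshold. GSTF4, GSTF11 and GSTF12 overlap genes on the opposite strand by 1014, 1096 and 108 bp, so that their values carry the same doubt over strand as GSTF2. Of these 6, GSTF14 alone passed the test of a different genotype effect in the 2 experiments (-1.10, adjusted p = 2.48e-06, limma).

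The tau class, the other large plant group of GSTs and also rich in stress-inducible genes, was read out in the same way. In soil 25 of its 28 genes were tested, 4 were higher and 0 lower DEGs, and the median log2 fold change was 0.25 against 0.00 over all genes tested. In medium 27 were tested, 4 were higher and 1 was lower, with a median of 0.30 against -0.01. DESeq2 and limma-trend also gave 0 lower DEGs in soil, where 5 genes were lower at an unadjusted p below 0.05 in edgeR. Beside these, the 7 phi-class members had medians of 1.29 in soil and 2.44 in medium, and the 6 other phi-class genes had 0.32 and 0.71. Leaving out GSTF3 gave the members medians of 0.79 in soil and 1.71 in medium. Leaving out GSTF5 gave the other phi-class genes a median of 0.27 in soil. Without the genes whose Col-0 libraries did not all reach the count minimum, 2 of 23 tau-class genes were higher DEGs in soil (GSTU4 and GSTU25, the second named after its value was seen), with a median of 0.22. In medium this left 1 of 23 (GSTU4), with a median of 0.17. These counts lie near the shares of higher DEGs among all genes tested, 5.87% in soil and 5.53% in medium. Among the 3 tau-class DEGs with the largest changes in each experiment, GSTU4 had the highest counts, with 5.75 ± 0.346 CPM in soil-grown ibm1-1 and 1.52 ± 0.208 CPM in Col-0 (SD, n = 3 each, log2 fold change 1.93, adjusted p = 1.52e-11, edgeR). In medium GSTU4 had 43.5 ± 2.20 CPM in ibm1-1 and 8.47 ± 2.30 CPM in Col-0 (SD, n = 2 each, log2 fold change 2.37, adjusted p = 2.49e-05, edgeR).

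GSTU11 and GSTU12 had larger fold changes from few counts, and 0 Col-0 libraries of either experiment reached the count minimum for them. GSTU11 had 74 counts in ibm1-1 and 11 in Col-0 over the soil libraries, a ratio of 6.16 (95% interval 3.25 to 12.9, Clopper-Pearson). In medium GSTU11 had 53 counts in ibm1-1 and 8 in Col-0, a ratio of 7.46 (95% interval 3.52 to 18.2). GSTU12 had 66 counts in ibm1-1 and 10 in Col-0 in soil, a ratio of 6.04 (95% interval 3.09 to 13.2), and 48 counts in ibm1-1 and 2 in Col-0 in medium, a ratio of 27.0 (95% interval 7.08 to 230.0). Both genes passed the test in both experiments (adjusted p from 3.32e-06 to 0.00979, edgeR). GSTU14 went against most of its class in medium, with 1.53 ± 0.442 CPM in ibm1-1 and 4.32 ± 1.53 CPM in Col-0 (SD, n = 2 each, log2 fold change -1.48, adjusted p = 0.0131, edgeR).

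The remaining GSTs (lambda, zeta and theta classes, dehydroascorbate reductases and TCHQD, 12 genes) had 1 higher DEG in soil, GSTL1, and 0 in medium, and 0 lower DEGs in either, with medians of 0.07 and 0.34. DESeq2 and limma-trend gave the same counts, and at an unadjusted p below 0.05 in edgeR 5 were higher and 4 lower in soil, and 6 were higher and 3 lower in medium. Among all genes tested, 5.87% in soil and 5.53% in medium were higher DEGs. GSTL1, named after its value was seen, had 2.26 ± 0.249 CPM in soil-grown ibm1-1 and 0.519 ± 0.298 CPM in Col-0 (SD, n = 3 each, log2 fold change 2.06, adjusted p = 3.23e-07, edgeR), and 2 of 3 Col-0 libraries reached the count minimum. Of the genes that make, reduce and turn over glutathione, 12 were tested in each experiment, and 0 were DEGs in either direction, with log2 fold changes from -0.48 to 0.37 in soil and from -0.15 to 0.96 in medium. DESeq2 and limma-trend gave 0 DEGs as well, and at an unadjusted p below 0.05 in edgeR 4 were higher and 5 lower in soil, and 7 were higher and 0 lower in medium. The share of all genes at an unadjusted p was not computed. An adjusted p below 0.05 alone called 25.4% of all genes higher and 25.9% lower in soil, and 11.5% and 7.77% in medium. By that rule 4 of these 12 were higher and 5 lower in soil, and 5 were higher and 0 lower in medium. The 5 in medium, named after their values were seen, were GGP1 (0.96), which degrades glutathione, GSH1 (0.82) and GSH2 (0.77), the enzymes of glutathione synthesis, GR1 (0.46), which reduces the oxidised form, and GGP3 (0.45). GSH2 (-0.48), GGP1 (-0.19) and GGP3 (-0.30) were among the 5 that were lower in soil.

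Lists of defence genes were set beside the defence-induced members GSTF2, GSTF3, GSTF6 and GSTF7, whose median log2 fold changes were 1.71 in soil and 3.55 in medium, or 1.59 and 3.63 without GSTF3. All 4 salicylic acid markers (ICS1, PR1, PR2 and PR5) were higher DEGs in soil and 3 of 4 in medium, with median log2 fold changes of 3.06 in soil and 4.23 in medium. Of the 5 camalexin enzymes (CYP79B2, CYP79B3, CYP71A12, CYP71A13 and PAD3), 3 were higher DEGs in each experiment with medians of 1.70 in soil and 2.60 in medium, and CYP79B3 was lower in soil at an adjusted p alone (log2 fold change -0.56, adjusted p = 6.79e-12, edgeR). The Col-0 libraries did not all reach the count minimum for CYP71A13 in either experiment, nor for PR1 and PR2 in medium. Without these genes, 2 of 4 camalexin enzymes were higher DEGs in each experiment, with medians of 0.84 in soil and 1.75 in medium. Of the remaining 2 salicylic acid markers 1 was a higher DEG in medium, where their median was 1.57. DESeq2 called 2 of the 5 camalexin enzymes higher in medium. Among all genes tested, 5.87% in soil and 5.53% in medium were higher DEGs.

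**Figure D4:**
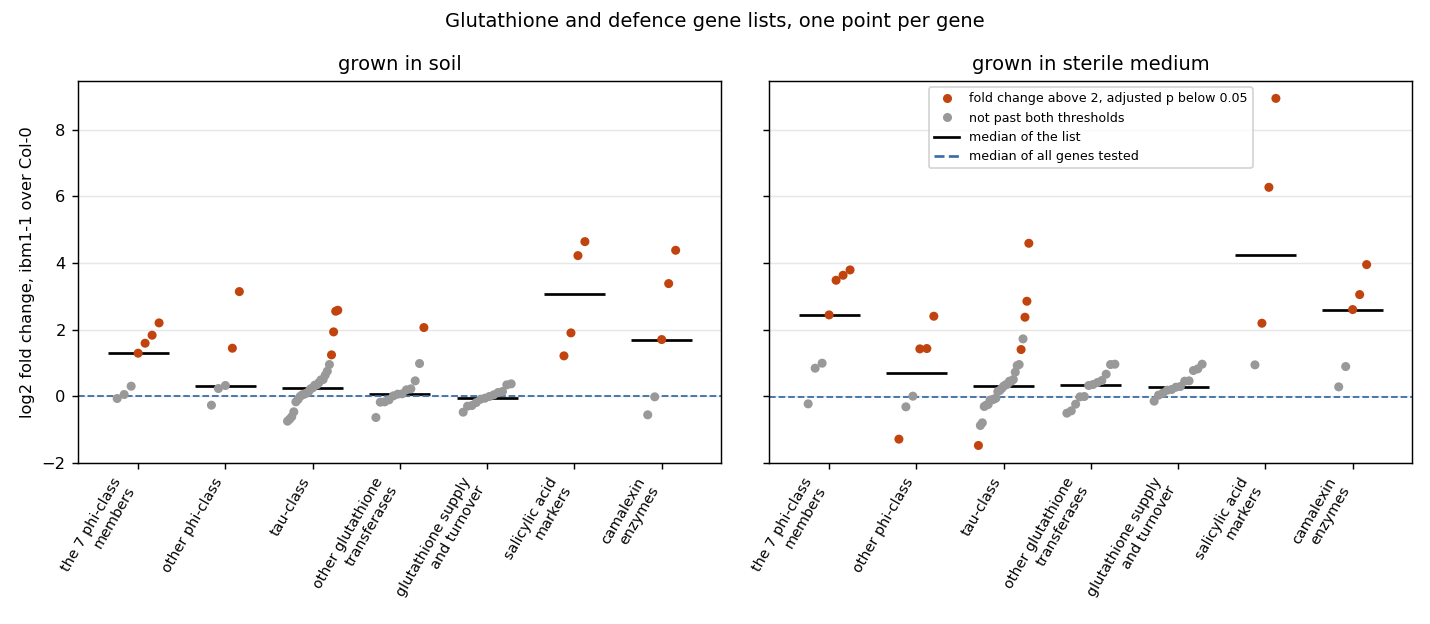
Log2 fold change of ibm1-1 over Col-0 for each tested gene of 7 lists, in soil (left) and in sterile medium (right). Coloured points passed both thresholds, black lines are list medians, and the dashed line is the median of all genes tested. The 7 phi-class members have medians of 1.29 and 2.44 (0.79 and 1.71 without GSTF3), and the glutathione supply genes have medians of -0.04 and 0.28.

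For 5 members the genes with the most alike pattern were sought among 19631 genes tested in both experiments, by the Euclidean distance of log2(CPM + 0.5) values over the 10 libraries, each centred on the Col-0 mean of its experiment. The added 0.5 shrinks the differences of genes with low CPM. Nearest to GSTF6 were FRK1, a receptor-like kinase gene used as a marker of flagellin responses (distance 0.657), CYP71A12, a cytochrome P450 of indole metabolism (0.709), and GPT2, a plastid glucose-6-phosphate transporter (0.779). Nearest to GSTF7 were CYP71A12 (0.661), CSLG2 (0.783) and ELI3-2 (0.824). GSTF2 had as its nearest genes AT1G36622 (0.322), PR4, a chitin-binding pathogenesis-related protein (0.394), and AT4G08780 (0.470). Genes that are near in this measure can still differ in fold change. GSTF2 had log2 fold changes of 1.59 in soil and 2.44 in medium, beside 2.86 and 4.61 for AT1G36622, 1.72 and 2.62 for PR4 and 1.93 and 2.74 for AT4G08780. GSTF7 had 1.29 in soil and 3.79 in medium, beside 1.70 and 3.95 for CYP71A12 and 3.63 and 5.88 for CSLG2.

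The housekeeping members had other neighbours in this measure. For GSTF9 these were AT4G27560 (0.221), AT4G18440 (0.227) and AT4G02420 (0.245). For GSTF10 they were UGT71C3, a glycosyltransferase gene (0.154), NDA1, an alternative NADH dehydrogenase of mitochondria (0.188), and SIR, the sulfite reductase of sulfate assimilation (0.198). SIR had log2 fold changes of 0.13 in soil and 1.05 in medium, beside 0.05 and 0.99 for GSTF10.

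The libraries held 23309938 to 24651600 counts in soil-grown ibm1-1 and 19957585 to 27001069 in Col-0, and 18260809 to 19108010 in medium-grown ibm1-1 and 19924658 to 21411230 in Col-0. IBM1 (AT3G07610) had log2 fold changes of -0.42 in soil (adjusted p = 1.17e-06) and -0.60 in medium (adjusted p = 0.00722, edgeR), and its libraries did not overlap in either experiment. A point mutation need not change transcript level, so this checks the labels in part only. The label of whole plants was set against 6 leaf and 8 root markers, and 0 of them were at 0 counts in either experiment. Summed leaf markers ranged from 27182 to 33020 CPM in soil-grown ibm1-1 and from 30340 to 32547 CPM in Col-0, and from 18032 to 18687 CPM in medium-grown ibm1-1 and from 20447 to 22303 CPM in Col-0. In medium this sum was mostly RBCS1A, with means of 12291 CPM in ibm1-1 and 14322 CPM in Col-0. Over the 6 leaf markers the median log2 fold change was -0.12 in soil and 0.05 in medium. At an adjusted p below 0.05 alone, 0 were higher and 3 lower in soil. In medium 1 was higher, LHCB1_1 (2.14, adjusted p = 0.00329, edgeR), and 0 were lower. Summed root markers ranged from 683 to 721 CPM in soil-grown ibm1-1 and from 597 to 619 CPM in Col-0, and from 3143 to 3744 CPM in medium-grown ibm1-1 and from 2809 to 3030 CPM in Col-0. This sum was mostly PYK10, a beta-glucosidase gene of roots, with 646 ± 23.0 CPM in soil-grown ibm1-1 and 554 ± 10.4 CPM in Col-0 (SD, n = 3 each). Its log2 fold change in soil was 0.22 (adjusted p = 4.55e-05, edgeR). In medium PYK10 had 3246 ± 409 CPM in ibm1-1 and 2706 ± 144 CPM in Col-0 (SD, n = 2 each, adjusted p = 0.238, edgeR). An adjusted p below 0.05 alone called 25.4% of all genes higher and 25.9% lower in soil, and 11.5% and 7.77% in medium. Over the 8 root markers the median log2 fold change was 0.25 in soil, where by that rule 5 were higher and 1 lower. In medium the median was -0.19, and 0 were higher and 2 lower, PIN2 (-0.59, adjusted p = 0.00485) and CASP1 (-0.75, adjusted p = 0.00631, edgeR), both named after their values were seen. At an unadjusted p below 0.05 in edgeR 1 was higher in medium, and DESeq2 and limma-trend gave 0 higher DEGs. The part of the root markers in the members' differences was not tested.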

How the data were processed

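Counts per gene were analysed for the 10 mRNA-seq libraries, and the 4 bisulfite samples were not analysed here. The authors trimmed and aligned reads to TAIR10 and deposited raw, unnormalized counts. Their methods name SolexaQA, cutadapt and TopHat for soil and Trimmomatic and HISAT for medium, while the submitters' processing notes list Trimmomatic 0.36, HISAT2 2.1.0 and HTSeq 0.9.1 for all libraries. The soil table also has 40 empty columns.

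Each experiment was fitted alone in R 4.3.3 with edgeR 4.0.16 (filterByExpr with a minimum count of 10, TMM factors, quasi-likelihood test, Benjamini-Hochberg adjustment over all genes tested). The SE was taken as the size of the log2 fold change over the square root of the F statistic. The difference between experiments used limma 3.58.1 (voom with quality weights). Count intervals cover counting error only. Coding lengths, taken from the RefSeq annotation instead of the planned protein table, and promoters come from TAIR10.1, matched by locus for 21815 soil and 32835 medium genes. The promoter of 1 member is not reported here. The steps were tested on simulated data.

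The members and lists were chosen with earlier results of these data known. All 13 phi-class genes were named, with the 3 tau-class genes of largest change among those called per experiment, any called against its list, and the 3 genes nearest to each of 5 members. The same rule for glutathione supply genes named none, since 0 were called. Those named above were chosen after their values were seen. Alternatives included DESeq2 1.42.0, limma-trend (prior count 0.5), other factors and filters, summed pairs (the same value entered for both partners) and each library left out.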

Additional observations from a re-analysis of the deposited data

Results flagged for a closer look

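The genotype effect differed between the experiments for 6 phi-class genes, by the test of the difference itself (limma with an adjusted p below 0.05 over 20192 genes, where 17.8% of genes passed). The log2 fold change in soil minus that in medium was -0.84 for GSTF2, -1.84 for GSTF6, -2.49 for GSTF7, -0.56 for GSTF9, -0.93 for GSTF10 and -1.10 for GSTF14, and in each the effect was the larger one in medium. The range for GSTF9 over the alternatives ran from -0.90 without medium Col-0 replicate 1 to -0.23 without medium Col-0 replicate 2. Plant age, growth conditions and read processing cannot be told apart from soil against medium here.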

How the results depend on the processing

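Of 194 values of the 7 members in soil and in medium under the alternatives, 190 kept their direction and their state as a DEG or not. The value of a summed pair was entered for both of its partners. GSTF8 in soil, not called, was at 0.05 with library size as the only scaling and at -0.07 as reported. The 3 others were GSTF9 (1.21) and GSTF10 (1.08) in medium without Col-0 replicate 1 and GSTF10 (1.07) without ibm1-1 replicate 1, which passed the fold-change threshold. In soil some values crossed the p threshold alone. GSTF8 did so without ibm1-1 replicate 2 (-0.13, adjusted p = 0.0127, edgeR). GSTF10 did so with library size only (0.17, adjusted p = 0.000524) and with upper quartile factors (0.10, adjusted p = 0.0277, both edgeR). The count of higher DEGs among the members was 4 in soil with any library left out and 4 to 6 in medium, and 3 in each with a mean CPM of at least 5, since GSTF3 was then not tested. It was 5 in soil and 6 in medium at an adjusted p alone. The count whose genotype effect differed between experiments was 5 to 6 with a library left out, the sixth being GSTF3 (-2.73) without medium Col-0 replicate 2. With library size as the only scaling, all soil genes had a median log2 fold change of 0.12, where GSTF10 stood at 0.17. Over all genes, the counts of higher and lower DEGs were 376 and 274 in soil and 518 and 139 in medium with a mean CPM of at least 5, and 5109 and 5198 in soil and 2391 and 1622 in medium at an adjusted p alone.

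Among the other phi-class genes, GSTF12 in medium was not called by DESeq2 (1.41) or without Col-0 replicate 2 (0.81), and its difference between experiments, -0.22 with voom and 0.02 with edgeR, was 0.60 without medium Col-0 replicate 2 and -1.02 without medium Col-0 replicate 1. The difference for GSTF11 passed the test with library size only (0.76) and without medium ibm1-1 replicate 2 (0.96) or Col-0 replicate 2 (0.74). In soil, replicate numbers in the labels showed no pairing, since deviations of same-numbered libraries correlated at -0.0194, 0.0229 and 0.00807. In medium the 2 libraries of a genotype mirror each other around their mean, so the correlation of 0.115 cannot decide on pairing. With the replicate block, 4 members were called in each experiment, with 1170 higher and 476 lower genes in soil and 1219 and 356 in medium. With 2 libraries per genotype in medium, single libraries decide calls near the fold-change threshold.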
